A study of Mus musculus with 16 samples.

Results

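Brown fat from mice lacking Akt2 in that tissue was compared with brown fat from wild-type littermates after housing at 22 °C, a temperature below thermoneutrality for a mouse. The comparison used 4 wild-type (WT) and 4 Akt2-knockout (KO) libraries, 8 of the 16 bulk RNA-seq libraries in the study, assigned to their groups by the labels alone. The tissue was the interscapular depot, a heat-producing fat pad between the shoulder blades. All mice were C57BL/6J and were kept at their temperature for 4 weeks, from 9 to 13 weeks of age. The knockout was made with UCP1-CreER, a Cre recombinase that is driven by the Ucp1 promoter and therefore acts in brown adipocytes and not in the other cells of the depot. The Cre protein is fused to an estrogen receptor, which normally makes it depend on tamoxifen. The Akt2 allele, any tamoxifen dosing and the transgene status of the WT littermates go unstated in the sources used here. The other 8 libraries, WT and KO at 30 °C with 4 each, entered the same model and serve below as the reference for the temperature at which mice need no extra heat. Whether every numbered library stands for a separate animal is not said in the labels, and p-values here reflect only the spread among the samples at hand.

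AKT2 is the AKT kinase that carries much of the insulin signal in fat and muscle. Insulin activates its receptor and the lipid kinase PI3K, AKT is then phosphorylated, and active AKT promotes glucose uptake, glycogen storage and the transcription of fatty acid and sterol synthesis genes, partly through the factors SREBP1 and ChREBP. In cool surroundings brown fat burns fatty acids for heat through UCP1 and at the same time makes new fatty acids from glucose, so that synthesis and oxidation run side by side. The design asks how far this program depends on AKT2.

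The targeted gene was checked first. Akt2 lies on the plus strand of chromosome 7 (GRCm38, 27591552 to 27640826, gene ENSMUSG00000004056). It was at 216, 261, 224 and 226 CPM (counts scaled to a common library total, after adjustment by trimmed-mean factors) in WT libraries 1 to 4 and at 76.3, 85, 89.3 and 78.2 CPM in KO libraries 1 to 4. The 2 groups did not overlap, and the KO mean of 82.2 ± 6.03 CPM (SD, n = 4) was 35.5% of the WT mean of 232 ± 19.8 CPM. The log2 fold change was -1.5 (SE 0.10), with an adjusted p of 5.06e-07 in edgeR's quasi-likelihood test, which is the test behind every adjusted p below. In whole tissue, loss of Akt2 from fewer cells and a partial loss in each cell cannot be told apart, and the same holds for every level reported here.

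The tissue carried its label. Of 13 brown adipocyte identity genes every one was counted in all 8 libraries, with Ucp1 between 3764 and 8756 CPM and Cidea, a lipid droplet protein of brown fat, between 2300 and 4213 CPM. Total counts ran from 14563657 to 23866743 per library. Several measures set libraries apart before any result is read. KO library 1 held 0.783% of its counts on skeletal muscle markers, against at most 0.0849% in the other 7, and it alone had high levels of most immediate early genes. The clock genes also split the groups: the difference in log2 CPM between the genes (Dbp less Arntl) was 0.90, 1.78, 0.79 and -0.80 in the WT libraries and -3.43, -2.20, -2.67 and -2.52 in the KO libraries. Genotype and this clock measure cannot be told apart at 22 °C, and with it as a covariate 109 genes were called in place of 2482.

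**Figure D1:**
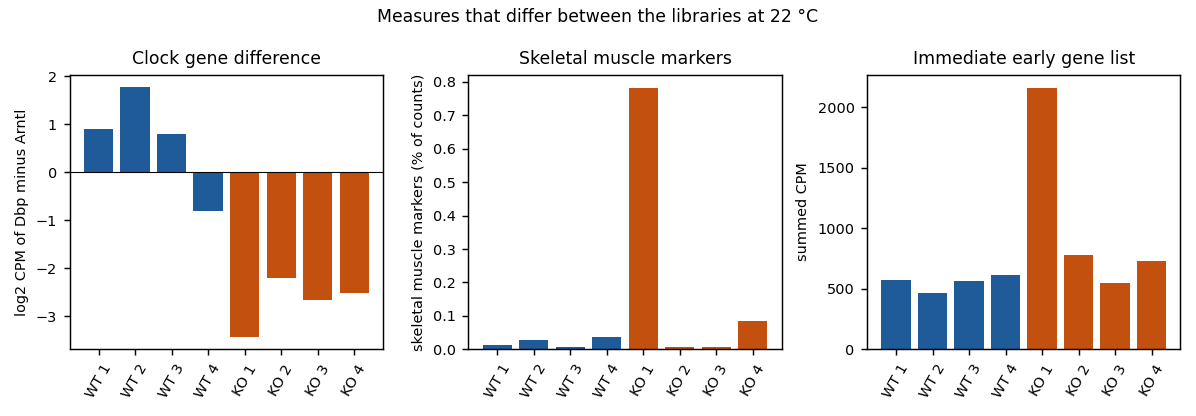
Bars give, for each of the 8 libraries at 22 °C, the difference in log2 CPM between the genes (Dbp less Arntl) (left), the percentage of counts on skeletal muscle markers (middle) and the summed CPM of the NR4A and immediate early gene list (right), with WT in blue and KO in orange. The clock measure separates the groups, from -0.80 upward in WT and from -2.20 downward in KO, while KO library 1 stands apart in the other panels at 0.783% and 2160 CPM.

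Of 14103 genes tested, 2482 (17.6%) passed an adjusted p of 0.05. Of these 1061 were higher in KO (7.52% of the genes tested) and 1421 were lower (10.1%), and the median log2 fold change over all genes tested was 0.02. Most calls were of modest size, with a median absolute log2 fold change of 0.52, and 198 of the higher and 236 of the lower genes changed at least 2-fold. In 2465 genes (17.5%) the 4 KO libraries did not overlap the 4 WT libraries, lying above them in 7.7% of genes and below them in 9.78%, and 1920 of the called genes (77.4%) were among them. At 30 °C the same test called 6 genes (0.0425%), with 608 at an unadjusted p under 0.05, and DESeq2 called 22 there. A fit of only the 8 libraries at 22 °C called 634 genes, 629 of them among the 2482, and the fit without the 5 libraries above 0.1% muscle counts, of which KO library 1 is the member at 22 °C, called 1096. Named genes whose calls at 22 °C were lost in that last fit were Akt1, Rictor, Tsc1, Pdp1, Idh2, Gk, Cidec, Cebpa, Pde4d, Prkaca, Fosb, Fos, Fosl1, Egr1, Socs3, Sphk1, Clock, Akap12 and Scoc.

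**Figure D2:**
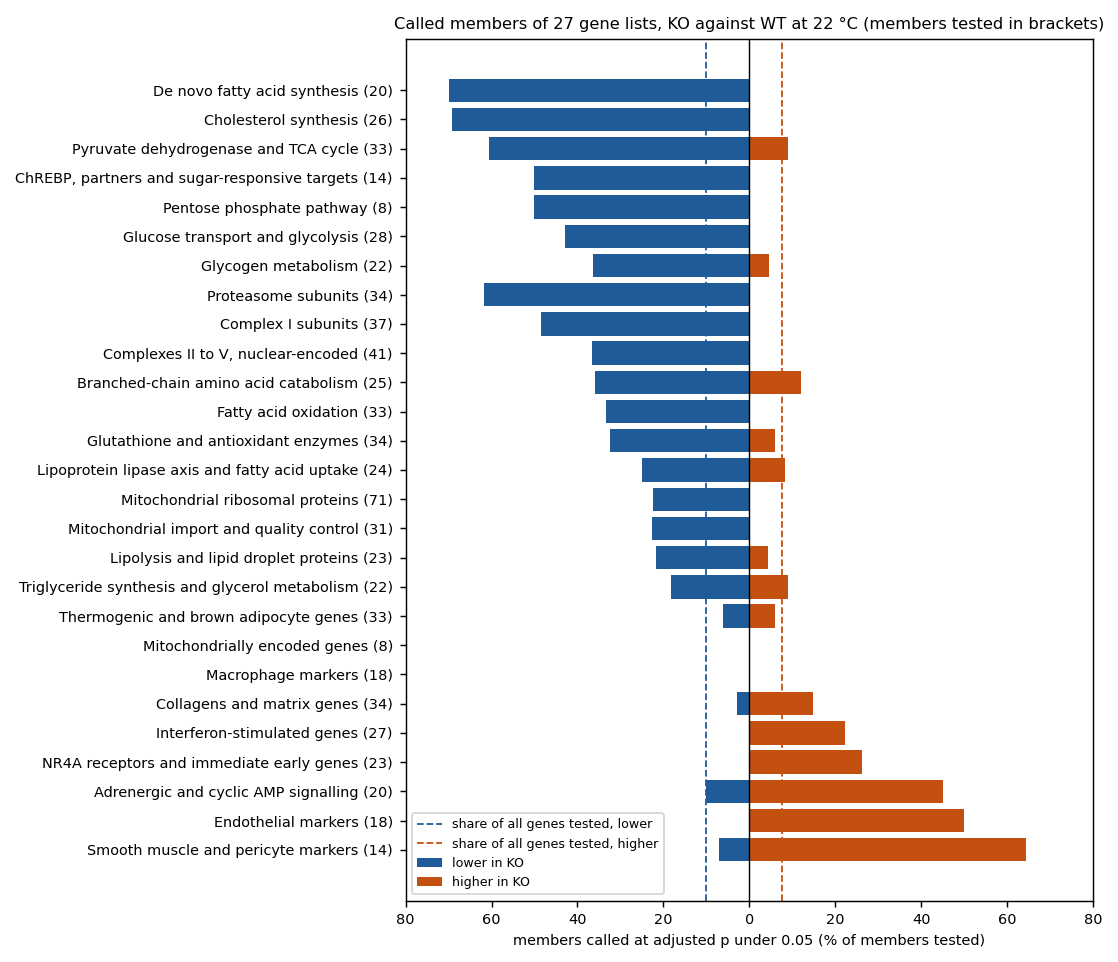
Each bar gives the percentage of a gene list's tested members that were called lower (blue, leftward) or higher (orange, rightward) in KO at 22 °C, with the number tested in brackets and dashed lines at the shares of all genes tested, 10.1% lower and 7.52% higher. Fatty acid synthesis has the largest share called lower of the lists drawn, 70.0%, followed by cholesterol synthesis at 69.2%, proteasome subunits at 61.8% and the TCA cycle at 60.6%, and smooth muscle and pericyte markers have the largest share called higher, 64.3%.

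Among the kinases related to the targeted gene, 3 of 6 were higher in KO and Akt2 itself was the single lower one. Akt1, the most widely expressed AKT, was at 103, 112, 120 and 103 CPM in WT and at 147, 152, 124 and 143 CPM in KO, a log2 fold change of 0.37 (SE 0.08, adjusted p = 0.00745). The groups were separate, and the KO mean was 129% of the WT mean. Without the muscle-bearing libraries the value was 0.34 (adjusted p = 0.0765), and with the clock covariate the adjusted p was 0.449. The largest relative change of the family belonged to Sgk2, a serum- and glucocorticoid-regulated kinase that shares substrate motifs with AKT. Sgk2 was at 1.97, 1.37, 0.563 and 0.523 CPM in WT and at 27.9, 23.7, 17.6 and 19.5 CPM in KO, a log2 fold change of 4.30 (SE 0.37, adjusted p = 3.09e-06). Its level at 30 °C lay between, at 5.13 ± 1.79 CPM in WT and 9.77 ± 2.14 CPM in KO, and the difference between the 2 knockout effects was 3.37 (adjusted p = 0.0012).

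In the list from the insulin receptor to PI3K and mTOR, 3 of 34 genes were higher and 3 lower. These shares of 8.82% each lie near those of all genes tested, 7.52% higher and 10.1% lower. The lower ones were Deptor, an inhibitory partner of mTOR kinase, Grb14, an adaptor that binds and restrains the insulin receptor, and Mtor itself. Deptor was at 455, 295, 392 and 562 CPM in WT and at 138, 141, 145 and 163 CPM in KO (a log2 fold change of -1.54, SE 0.17, adjusted p = 2.62e-05). Grb14 fell by 1.37 (SE 0.17, adjusted p = 9.24e-05) to 43.2 ± 6.23 CPM from 112 ± 15.6, and Mtor fell by 0.80 (SE 0.11, adjusted p = 0.000193). Rictor, a component of the complex that phosphorylates AKT, and Tsc1, a brake on mTOR, had log2 fold changes of 0.45 and 0.46, with adjusted p of 0.0323 and 0.0223. The count of higher members rested on single libraries, since it was 0 without WT library 2, 0 without KO library 1 and 6 without WT library 4. Of 31 FOXO factors and typical FOXO targets, 1 was higher and 5 were lower. These were 3.23% and 16.1% of the list, beside 7.52% and 10.1% of all genes tested. Without WT library 1 there were 4 higher, without WT library 2 there were 2 lower, and with the clock covariate none was called. Foxo1, a transcription factor that AKT inactivates, was at 221, 159, 188 and 144 CPM in WT and at 138, 131, 173 and 224 CPM in KO, with overlapping groups (a log2 fold change of -0.10, SE 0.15, adjusted p = 0.699).

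De novo fatty acid synthesis had the lowest median of the 53 lists, at -1.44 on the log2 scale beside 0.02 for all genes. Of its 20 members 14 were lower in KO and none higher, and the fit without the muscle-bearing libraries also gave 14 lower. The summed level of the list was 81280 to 118500 CPM in WT and 14350 to 23440 CPM in KO, or between 7.35% and 10.7% of a WT library's counts and between 1.43% and 2.23% of a KO library's. Scd1, a desaturase given below, and fatty acid synthase, Fasn, carried much of this sum, and Scd1 had the higher mean in both groups. The levels of Fasn in WT were 31829, 28286, 28708 and 35530 CPM and in KO 4323, 3734, 4517 and 3626 CPM. The KO mean was 13.0% of the WT mean (a log2 fold change of -2.94, SE 0.36, adjusted p = 9.64e-05), yet it stayed above the mean of 988 ± 363 CPM in KO at 30 °C.

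Each step of the route from mitochondrial citrate to a fatty acid was lower. Slc25a1, which exports citrate from mitochondria, was at 1235, 1339, 1008 and 1003 CPM in WT and at 343, 278, 325 and 249 CPM in KO (a log2 fold change of -1.94, SE 0.13, adjusted p = 2.66e-07). Acly, which splits cytosolic citrate into acetyl-CoA and oxaloacetate, was at 6785, 4454, 4822 and 7708 CPM in WT and at 974, 685, 1030 and 719 CPM in KO (a log2 fold change of -2.80, SE 0.30). Acss2, which makes acetyl-CoA from acetate, fell by 2.38 (SE 0.18), and Acaca, which turns acetyl-CoA into malonyl-CoA, fell by 2.34 (SE 0.19). The WT and KO libraries were separate for all of these genes. Acaca had almost no spread between KO libraries, at 274, 265, 271 and 256 CPM, against 1355, 1346, 1237 and 1444 CPM in WT.

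Downstream and accessory members followed. Scd1, the main stearoyl-CoA desaturase of fat, went from 42072 ± 12676 CPM in WT to 9025 ± 3291 CPM in KO (a log2 fold change of -2.22, SE 0.40, adjusted p = 0.00217). At 30 °C its log2 fold change was -1.72 (adjusted p = 0.42), and the knockout effects at the 2 temperatures did not pass the test of their difference (-0.50, adjusted p = 0.621). Scd2 fell by 2.4 (SE 0.39). Thrsp, a small nuclear protein that promotes lipogenesis, fell by 1.75 (SE 0.15), from 4987 ± 1144 to 1478 ± 144 CPM, and Aacs, which activates acetoacetate for lipid synthesis, fell by 1.54 (SE 0.16). The transcription factors changed less than these enzymes. Srebf1, which encodes SREBP1, was at 437 ± 94.3 CPM in WT and 247 ± 23.1 CPM in KO (a log2 fold change of -0.82, SE 0.20, adjusted p = 0.0121). Mlxipl, which encodes ChREBP, was at 707 ± 138 and 450 ± 21.6 CPM (a log2 fold change of -0.65, SE 0.13, adjusted p = 0.00313). Of 14 tested genes of ChREBP, its partners and sugar-responsive targets, 7 were lower and none higher.

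**Figure D3:**
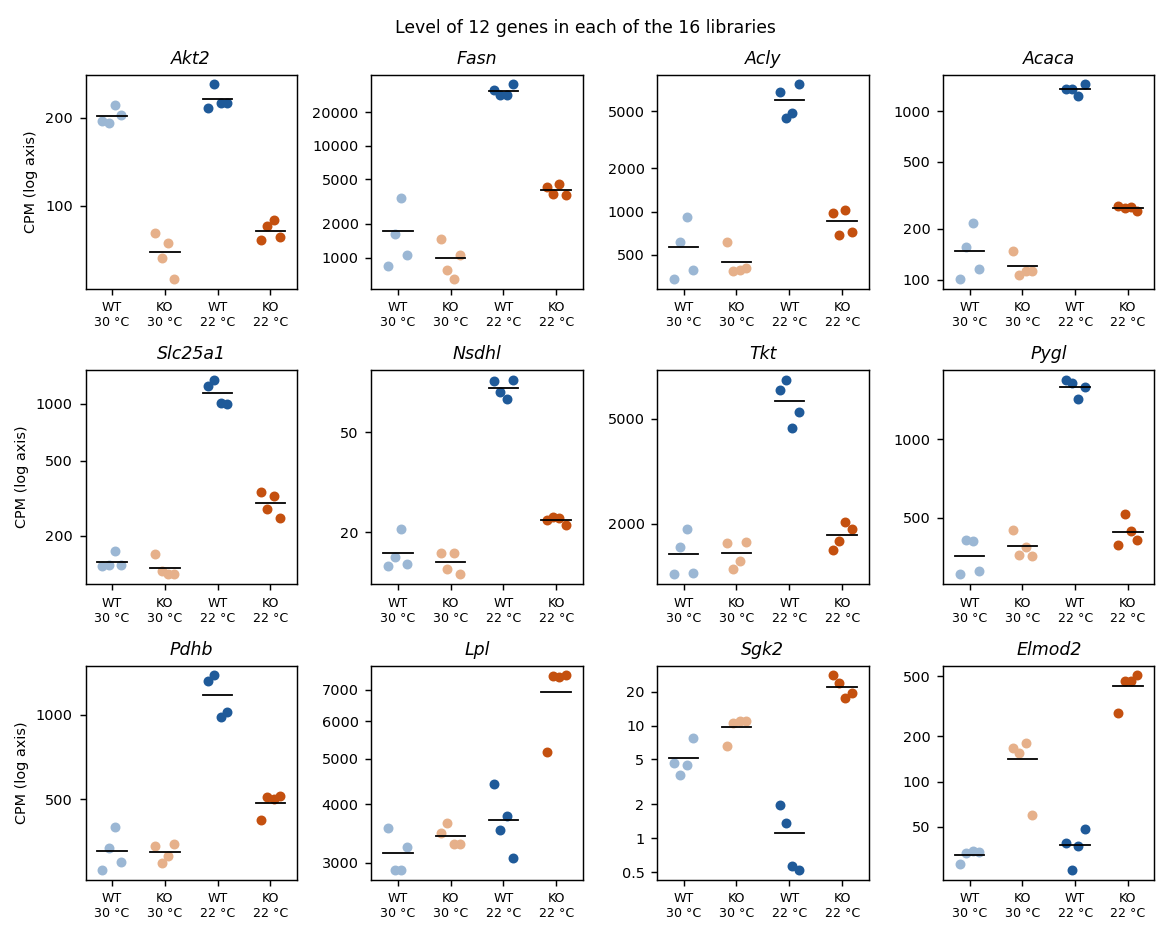
Points give the CPM of 12 genes in each library on a logarithmic axis of its own for each gene, with bars at the mean of 4 libraries, for WT and KO at 30 °C and at 22 °C. At 22 °C the KO libraries lie below the WT libraries for 9 of the 12 genes and above them for Lpl, Sgk2 and Elmod2.

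Cholesterol synthesis fell beside fatty acid synthesis. Of 26 genes 18 were lower in KO and none higher, with a median of -0.92, and in 17 of the 26 all KO libraries lay below all WT libraries. Nsdhl, a sterol dehydrogenase of the late pathway, was at 80.3, 72.7, 67.6 and 81 CPM in WT and at 22.5, 23.1, 22.8 and 21.4 CPM in KO (a log2 fold change of -1.75, SE 0.11, adjusted p = 2.32e-07). Its 4 KO values differed by less than 2 CPM. Pmvk, phosphomevalonate kinase of the early pathway, fell by 1.87 (SE 0.16), and Fdps, which makes farnesyl diphosphate, by 1.58 (SE 0.18). Lss, lanosterol synthase, went from 76.6 ± 10.7 to 29.9 ± 2.83 CPM, a change of -1.36 (SE 0.12). Sc5d and Dhcr7, the enzymes of the last desaturation and reduction, fell by 1.32 and 1.18. Insig1, which retains SREBP precursors in the endoplasmic reticulum and is itself an SREBP target, fell by 1.35 (SE 0.18). Srebf2, which encodes the main regulator of the pathway, did not pass the test. It was at 47.8, 45.4, 56.0 and 64.7 CPM in WT and at 63.8, 48.3, 48.5 and 50.8 CPM in KO (a log2 fold change of -0.02, SE 0.12, adjusted p = 0.935).

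The promoters of genes from both lipid lists were read in RefSeq (GRCm38.p6) over the 250 bases before the start site. Several short motifs were searched, and only some are given here. The letters CCAAT, a box bound by NF-Y, a factor known to work with SREBP, were searched on both strands, where the reverse strand reads ATTGG. They occurred in 39.9% of the 10699 promoters of tested genes, in 17 of 18 promoters of the cholesterol list (94.4%) and in 8 of 15 of the fatty acid list (53.3%). Among all genes called lower in KO the share was 42.9%, and among those called higher 38.1%. A cell division list that did not move, with 1 of 27 genes called, had the box in 20 of 23 promoters. A sterol element written TCACNCCAC was found in 1.21% of all promoters and in 1 of 18 of the cholesterol list. These are matches of letters and not measured binding. Shown 5′ to 3′ on the gene's strand, with the matches in capitals, are Fasn (chr11:120824548-120824797, minus strand) and Slc25a1 (chr16:17928220-17928469, minus strand) from the fatty acid list and Nsdhl (chrX:72918271-72918520, plus strand) and Lss (chr10:76531355-76531604, plus strand) from the sterol list. The single run in capitals of 8 bases in Fasn is a CCAAT that overlaps an ATTGG. All promoters shown carry the box, which 8 of 15 did in the fatty acid list.
Fasn: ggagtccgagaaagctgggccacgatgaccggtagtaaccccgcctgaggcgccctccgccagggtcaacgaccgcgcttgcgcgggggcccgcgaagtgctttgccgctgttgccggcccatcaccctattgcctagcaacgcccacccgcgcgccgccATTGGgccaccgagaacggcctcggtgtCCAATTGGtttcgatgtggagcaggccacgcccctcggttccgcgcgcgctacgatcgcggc
Slc25a1: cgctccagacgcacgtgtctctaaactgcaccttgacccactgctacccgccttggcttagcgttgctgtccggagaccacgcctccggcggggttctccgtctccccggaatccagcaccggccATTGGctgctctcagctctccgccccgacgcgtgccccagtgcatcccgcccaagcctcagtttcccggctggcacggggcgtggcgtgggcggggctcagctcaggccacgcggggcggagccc
Nsdhl: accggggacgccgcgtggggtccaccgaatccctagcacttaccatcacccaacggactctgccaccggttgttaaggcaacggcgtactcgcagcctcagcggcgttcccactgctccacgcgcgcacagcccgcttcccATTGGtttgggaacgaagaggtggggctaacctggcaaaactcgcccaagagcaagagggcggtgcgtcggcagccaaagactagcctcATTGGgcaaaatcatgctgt
Lss: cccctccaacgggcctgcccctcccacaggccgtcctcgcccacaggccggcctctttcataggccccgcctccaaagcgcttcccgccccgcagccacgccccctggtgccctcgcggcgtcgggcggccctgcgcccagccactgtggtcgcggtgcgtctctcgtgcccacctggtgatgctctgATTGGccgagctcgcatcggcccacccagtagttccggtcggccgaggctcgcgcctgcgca

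The carbohydrate routes that feed lipid synthesis were lower as well. In the pentose phosphate pathway, which supplies NADPH for fatty acid synthesis, 4 of 8 genes fell and none rose. Tkt, transketolase, was at 6453, 7031, 4628 and 5305 CPM in WT and at 1596, 1725, 2029 and 1905 CPM in KO (a log2 fold change of -1.69, SE 0.15, adjusted p = 4.49e-06). Pgd, the second NADPH-producing dehydrogenase of the pathway, fell by 1.86 (SE 0.18), and Taldo1, transaldolase, by 1.12 (SE 0.14). Of 28 genes of glucose transport and glycolysis 12 fell and none rose. Slc2a4, the insulin-responsive glucose transporter GLUT4, was at 925, 745, 732 and 768 CPM in WT and at 480, 462, 444 and 487 CPM in KO (a log2 fold change of -0.76, SE 0.10, adjusted p = 0.000144). All 4 KO libraries lay within 1 SD of the mean of 478 ± 50.8 CPM in WT at 30 °C. Slc2a5, a fructose transporter, fell furthest in the list, by 3.87 (SE 0.61, adjusted p = 0.000817) to 4.73 ± 1.82 CPM from 68.7 ± 31.1. Gpi1, Aldoa and Pkm, enzymes of the upper, middle and last steps, fell by 1.22, 1.15 and 1.06. Gapdh fell by 1.26, but processed copies elsewhere in the genome can take part of its reads.

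Glycogen metabolism moved with glycolysis, with 8 of 22 genes lower and 1 higher. Pygl, the glycogen phosphorylase of liver type, which releases glucose units from glycogen, was at 1689, 1641, 1429 and 1589 CPM in WT and at 393, 516, 446 and 411 CPM in KO (a log2 fold change of -1.85, SE 0.12, adjusted p = 2.66e-07). Gbe1, the glycogen branching enzyme, fell by 1.16 (SE 0.10). The higher member was Ppp1r3g, a subunit that directs protein phosphatase to glycogen, at 0.742 ± 0.350 CPM in WT and 3.19 ± 2.47 CPM in KO (a log2 fold change of 2.11, SE 0.50, adjusted p = 0.0106). Both synthesis and breakdown enzymes were thus among the lower genes.

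Pyruvate dehydrogenase and the TCA cycle had 20 of 33 genes lower and 3 higher, with a median of -0.36. Pdhb, the beta subunit of the enzyme that turns pyruvate into acetyl-CoA, was at 1322, 1381, 977 and 1020 CPM in WT and at 420, 509, 501 and 511 CPM in KO (a log2 fold change of -1.28, SE 0.13, adjusted p = 1.51e-05). Pdha1 and Dlat, the alpha subunit and the transacetylase, fell by 0.74 (SE 0.08) and 0.88 (SE 0.10). Pdk1, a kinase that switches the complex off, was lower with the complex and fell by 1.23 (SE 0.10). The higher members included Idh2, a mitochondrial NADPH-producing dehydrogenase, at 0.37 (SE 0.09, adjusted p = 0.014), and Pdp1, a phosphatase that switches the complex on, at 0.62 (SE 0.20, adjusted p = 0.041). KO library 1 held the highest Pdp1, 19.2 CPM beside 9.74 to 10.6 in the other KO libraries, and without it the adjusted p was 0.121. Without the libraries above 0.1% muscle counts 11 TCA genes were lower, and with the clock covariate 1.

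**Figure D4:**
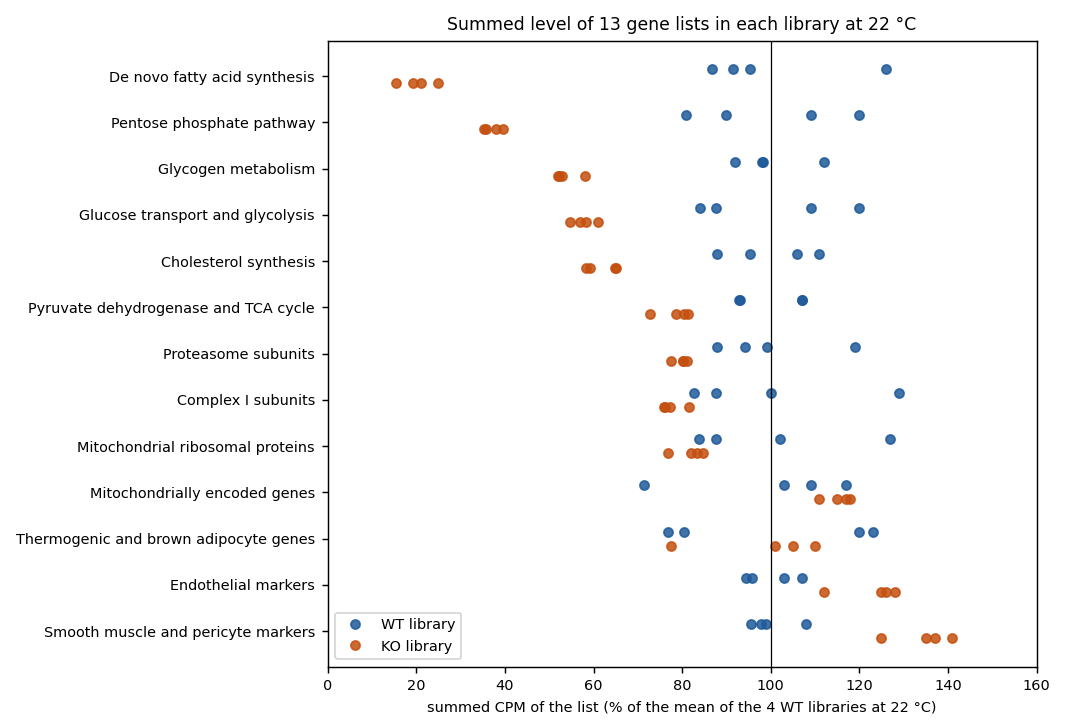
Each point is 1 library at 22 °C, WT in blue and KO in orange, and gives the summed CPM of a gene list as a percentage of the mean of the 4 WT libraries. The groups are furthest apart for fatty acid synthesis, with the highest KO library at 25% and the lowest WT library at 86.7%, and they overlap for the mitochondrially encoded and thermogenic lists.

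Triglyceride handling was mixed. Of 22 genes of triglyceride synthesis and glycerol metabolism 4 fell and 2 rose, with a median of 0.01. The share that rose, 9.09%, lies near the 7.52% of all genes tested, and 18.2% fell beside 10.1%. None was higher without WT library 2, without KO library 4, without the muscle-bearing libraries or in the fit of only 8 libraries. Agpat2, an acyltransferase of the glycerolipid route, fell from 1916 ± 503 to 942 ± 215 CPM (a log2 fold change of -1.02, SE 0.20, adjusted p = 0.00382). Gk, glycerol kinase, was at 391, 141, 108 and 181 CPM in WT and at 328, 431, 453 and 504 CPM in KO, with WT library 1 inside the KO range (a log2 fold change of 1.06, SE 0.29, adjusted p = 0.0205, and 0.0594 without WT library 2). Pnpla3, a lipid droplet protein and SREBP1 target counted in the lipolysis and droplet list, had one of the smallest p-values of all, at 945, 865, 906 and 902 CPM in WT and at 215, 191, 172 and 216 CPM in KO (a log2 fold change of -2.19, SE 0.12, adjusted p = 8.54e-08). In that list 5 of 23 genes were lower, among them Lipe, hormone-sensitive lipase, by 0.57 (SE 0.09), and 1 was higher, the droplet fusion protein Cidec, at 0.44 (SE 0.14, adjusted p = 0.041, 0.0762 without KO library 1 and 0.0994 without KO library 2). Its shares, 21.7% lower and 4.35% higher, stand beside 10.1% and 7.52% of all genes tested.

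Lipoprotein lipase, which frees fatty acids from circulating triglyceride, went the other way. Lpl was at 4419, 3527, 3766 and 3072 CPM in WT and at 5162, 7506, 7466 and 7515 CPM in KO (a log2 fold change of 0.90, SE 0.13, adjusted p = 0.000307). All KO libraries were above all WT libraries, with KO library 1 the lowest of its group. In the list of the lipoprotein lipase axis and fatty acid uptake 2 of 24 genes rose and 6 fell. Acsl5, which activates fatty acids, fell by 1.59 (SE 0.21), and Dbi, which binds acyl-CoA, by 0.98 (SE 0.14).

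In 4 lists of mitochondrial genes of the nuclear genome the called members were lower, by small amounts. All 37 complex I subunits had negative log2 fold changes, between -0.56 and -0.11, and 18 passed the test. In complexes II to V 15 of 41 were lower, in the mitochondrial ribosome 16 of 71, all 71 with negative values, and in import and quality control 7 of 31, with none higher in any of these lists. Sdha, the catalytic subunit of complex II, was at 4204, 3896, 3599 and 3504 CPM in WT and at 2503, 2890, 2832 and 3019 CPM in KO (a log2 fold change of -0.44, SE 0.07, adjusted p = 0.0011). Ndufs1 of complex I fell by 0.42 (SE 0.07), Cox6a1 of complex IV by 0.76 (SE 0.14) and the ribosomal protein gene Mrpl50 by 0.87 (SE 0.08). The number called moved with 1 library. Without WT library 4, 27 complex I subunits, 30 of complexes II to V and 40 mitochondrial ribosomal proteins were lower, and without KO library 1 the counts were 9, 10 and 11. Without KO library 3 they were 9, 9 and 12. Without the muscle-bearing libraries 3, 2, 4 and 2 members of the 4 lists were lower. With the clock covariate none was called and the medians changed sign, to 0.12 for complex I, 0.18 for complexes II to V, 0.17 for the mitochondrial ribosome and 0.09 for import and quality control. WT library 2 had the highest summed complex I level, 24290 CPM beside 15540 to 18840 in the other WT libraries and 14230 to 15320 in KO.

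The mitochondrial genome itself gave no call among its 8 tested genes, whose median was 0.19. Their summed level was 221200, 135500, 194700 and 207300 CPM in WT and between 210100 and 223300 CPM in KO. WT library 2, the highest for complex I, was the lowest for mitochondrial transcripts. Reads of these genes can be shared with nuclear copies.

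In fatty acid oxidation 11 of 33 genes were lower and none higher, a count that was 6 without WT library 2 or KO library 1 and 15 without WT library 4. It was 3 without the muscle-bearing libraries and 2 with only the 8 libraries at 22 °C. With the clock covariate none was called and the list's median went from -0.15 to 0.12. Acot11, an acyl-CoA thioesterase that is raised by cold, fell furthest, from 641 ± 199 to 153 ± 38.4 CPM (a log2 fold change of -2.06, SE 0.22, adjusted p = 2.9e-05). Hadha, a subunit of the trifunctional protein, was at 2924 ± 394 and 1929 ± 254 CPM (a log2 fold change of -0.60, SE 0.10), and Pex11a, which governs peroxisome division, fell by 0.46 (SE 0.10). Of 25 genes of branched-chain amino acid catabolism 9 were lower and 3 higher, with 1 lower without the muscle-bearing libraries and none with the clock covariate. Slc25a44, the mitochondrial carrier of these amino acids, fell by 0.63 (SE 0.11, adjusted p = 0.00127), from 149 ± 23.2 to 96.4 ± 11.3 CPM.

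Few heat-producing genes passed the test. Of 33 thermogenic and brown adipocyte genes 2 were higher and 2 lower, shares of 6.06% each that lie near those of all genes tested. Leaving out single libraries gave 1 to 5 higher and 1 to 4 lower, with 5 higher without WT library 1. Ucp1, the uncoupling protein that releases respiratory energy as heat, was at 8719, 7831, 4399 and 3764 CPM in WT and at 4275, 7868, 7762 and 8756 CPM in KO. The groups overlapped throughout, and the log2 fold change of 0.21 (SE 0.24) did not pass the test (adjusted p = 0.565). Ppargc1a, the coactivator of mitochondrial and thermogenic genes, was higher in every KO library, at 134, 149, 156 and 282 CPM against 101, 79.6, 58.5 and 84.1 CPM (a log2 fold change of 1.16, SE 0.23, adjusted p = 0.00348). Gk was the other higher member, and Adrb3 and Cebpa, an adipocyte transcription factor, were the lower ones. Ckb, the creatine kinase of creatine cycling, rose from 29.2 ± 10.2 to 81 ± 8.08 CPM (a log2 fold change of 1.47, SE 0.21, adjusted p = 0.000357), which was still below its 148 ± 19.9 CPM in WT at 30 °C.

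Signalling from the sympathetic nerves was represented by 20 tested genes, of which 9 were higher in KO and 2 lower. Adrb3, the beta-3 adrenergic receptor that starts the cyclic AMP signal in fat, was among the lower ones, at 393, 652, 431 and 334 CPM in WT and at 296, 160, 241 and 205 CPM in KO (a log2 fold change of -1.01, SE 0.21, adjusted p = 0.00551). Prkaca, a catalytic subunit of protein kinase A, had a log2 fold change of -0.28 (SE 0.08, adjusted p = 0.0251). Higher members included Adcy3, a cyclase that makes cyclic AMP, at 0.83 (SE 0.22), Gnas, the stimulatory G protein, at 0.47 (SE 0.11), Pde4d, which degrades cyclic AMP, at 0.54 (SE 0.13), and Crem, a cyclic AMP-responsive transcription factor, at 0.84 (SE 0.15). The receptor and the enzymes that make and remove cyclic AMP therefore did not share a direction. Leaving out single libraries gave 4 to 10 higher members, with 4 without KO library 2, and the fit of only the 8 libraries gave 2. Without the muscle-bearing libraries 4 were higher and 1 was lower, and with the clock covariate none was called.

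Of 23 NR4A receptors and immediate early genes 6 were higher and none lower. In 1 of these 6 all KO libraries lay above all WT libraries, and the other 5 were high in KO library 1 and overlapped otherwise. Nr4a3, an orphan nuclear receptor induced by cyclic AMP, was at 11.5, 5.54, 5.38 and 14.8 CPM in WT and at 73.6, 65.2, 42.8 and 80.2 CPM in KO (a log2 fold change of 2.80, SE 0.51, adjusted p = 0.00205). The remaining called genes were Fosb, Fos, Fosl1, Egr1 and Socs3. Fosb was at 111 CPM in KO library 1 and at 2.14, 1.40 and 3.33 CPM in the other 3, against 0.455 to 1.74 CPM in WT. Without KO library 1 its adjusted p was 0.287, and the list had 1 higher member, as it did without WT library 2. Akap12, a scaffold for protein kinase A, and Sphk1, sphingosine kinase, had the same shape, with Akap12 at 599 CPM in KO library 1 and 50.2 to 59.9 CPM in the other KO libraries. KO library 1 was also the one with skeletal muscle counts, and the part of either in these calls was not tested.

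Proteasome genes were lower in small steps. Of 34 proteasome subunits 21 were lower and none higher, and all 34 had negative values between -0.67 and -0.15. Psmd14, a deubiquitinase of the regulatory particle, went from 83.7 ± 9.79 to 52.5 ± 0.985 CPM (a log2 fold change of -0.67, SE 0.08, adjusted p = 4.92e-05), and Psmb7, a catalytic subunit, fell by 0.53 (SE 0.09). Leaving out single libraries gave 15 to 27 lower subunits, the fit without the muscle-bearing libraries gave 9 and the clock covariate gave none. Of 34 glutathione and antioxidant genes 11 were lower and 2 higher, with a median of -0.07, among them Gpx4, which removes lipid peroxides, at -0.71 (SE 0.14) and Gstp1 at -0.60 (SE 0.13). Without KO library 3 the list had 5 lower members, with only the 8 libraries 1 and with the clock covariate none. In both genes WT library 2 was the highest, at 402 and 76.3 CPM. Among 33 genes of the ATF4 amino acid response 4 were higher, including the amino acid transporter subunit Slc3a2 at 0.71 (SE 0.15), and 4 lower, including the serine synthesis enzyme Psph at -0.66 (SE 0.13) and the factor Atf5 at -0.81 (SE 0.20). These shares of 12.1% each lie near those of all genes tested, 7.52% higher and 10.1% lower. The higher count was 2 without WT library 1 or KO library 1, 6 without KO library 3, 1 without the muscle-bearing libraries and 0 with only the 8 libraries. Of 75 cytosolic ribosomal protein genes 4 were higher and none lower, below the background share, and 1 was higher without KO library 1.

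In NAD metabolism 3 of 16 genes were higher and 6 lower (18.8% and 37.5%, beside 7.52% and 10.1% of all genes tested). With only the 8 libraries at 22 °C 1 was higher and 4 were lower, and with the clock covariate none was called. Nnmt, which methylates nicotinamide and so diverts it from NAD, was at 37.5, 38.9, 26.6 and 11.2 CPM in WT and at 88.8, 86.1, 100 and 142 CPM in KO (a log2 fold change of 1.87, SE 0.31, adjusted p = 0.00108). At 30 °C the WT mean was 27.7 ± 7.81 CPM and the KO mean 22.1 ± 3.60 CPM.

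Some vascular cell markers were higher in KO. Of 18 endothelial markers 9 were higher and none lower, with a median of 0.32, and in 7 of the 18 all KO libraries lay above all WT libraries. Tie1, an endothelial receptor kinase, was at 102, 121, 104 and 125 CPM in WT and at 143, 158, 156 and 148 CPM in KO (a log2 fold change of 0.42, SE 0.08, adjusted p = 0.00217). Of 14 smooth muscle and pericyte markers 9 were higher and 1 lower. Tagln, a smooth muscle actin-binding protein, rose by 0.67 (SE 0.13), Acta2, smooth muscle actin, by 0.73 (SE 0.17) and the pericyte marker Rgs5 by 0.47 (SE 0.08), while Cspg4 fell by 0.64 (SE 0.14). The endothelial count was 3 without WT library 3 or KO library 2, and 4 without WT library 2, KO library 3 or KO library 4, and the smooth muscle count was between 6 and 9 with any 1 library left out. In the fit of only the 8 libraries the counts of higher members were 1 and 4, and with the clock covariate both were 0. Dcn and Lum, proteoglycans of fibroblasts, rose by 0.54 (SE 0.09) and 0.68 (SE 0.12), 2 of the 15 fibroblast and preadipocyte markers. Of 34 collagen and matrix genes 5 were higher and 1 lower, with 3 higher without WT library 3, KO library 2 or KO library 4. The main shares, 14.7% higher and 2.94% lower, stand beside 7.52% and 10.1% of all genes tested.

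None of 18 macrophage markers was called, with a summed level of 142 to 317 CPM in WT and 166 to 213 CPM in KO. Lyz2, a macrophage lysozyme, had a log2 fold change of -0.22 (SE 0.29, adjusted p = 0.628). In edgeR 0 of 21 skeletal muscle markers were called either, although their median was 3.74. KO library 1 summed to 8217 CPM for this list and the other 7 libraries to between 67.3 and 850 CPM. Interferon-stimulated genes had 6 of 27 higher and none lower, including Stat2 at 0.65 (SE 0.19, adjusted p = 0.0279), but 1 higher without KO library 2 and 2 without WT library 1 or WT library 2. Of 14 lymphocyte markers 1 was higher and none lower, a share of 7.14% that lies near the 7.52% of all genes tested. It was Igha, the immunoglobulin A heavy chain made by plasma cells, at 0.188 to 1.92 CPM in WT and at 2.11 to 10.7 CPM in KO (a log2 fold change of 2.71, SE 0.64, adjusted p = 0.01), without overlap. These levels are low, and no member of the list was called with limma-voom or with the clock covariate.

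The clock itself differed between the groups. Of 21 core clock genes 2 were higher and 4 lower, with 7 lower without WT library 4. Dbp, an output gene driven by the clock, was at 29.8, 35.4, 26.1 and 11.1 CPM in WT and at 3.06, 5.45, 4.14 and 4.51 CPM in KO (a log2 fold change of -2.57, SE 0.35, adjusted p = 0.000267). Arntl, which encodes the activator BMAL1, was at 15.9, 10.2, 15.1 and 19.4 CPM in WT and at 34.2, 25.4, 26.9 and 26.5 CPM in KO (a log2 fold change of 0.90, SE 0.16, adjusted p = 0.00171). Clock, its partner, rose by 0.49 (SE 0.13). Dbp and Arntl peak at opposite times of day in most tissues. The time of day at which each tissue was taken is not given in the sources used here, so hour of collection and genotype cannot be told apart. With the clock covariate 7 genes of fatty acid synthesis and 6 of cholesterol synthesis were still lower, Acaca at -2.27 (adjusted p = 0.00969) and Nsdhl at -1.85 (adjusted p = 0.000802) among them, while Fasn at -2.94 had an adjusted p of 0.0701. It left 2 lower members in the pentose phosphate pathway, 3 in glycogen metabolism, 1 in glycolysis and 1 in the TCA cycle.

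Other large or highly significant changes were named by size or p-value. Among the lower genes, Sorcs2, a sorting receptor of the VPS10 family, was at 104, 80.1, 93.8 and 191 CPM in WT and at 14.4, 10.2, 13.2 and 15.6 CPM in KO (a log2 fold change of -3.14, SE 0.26, adjusted p = 2.41e-06). Adprhl1, best known from heart, had a log2 fold change of -4.32 (SE 0.61), from 16.5 ± 5.04 to 0.828 ± 0.692 CPM, and was at 0.350 ± 0.319 CPM in WT at 30 °C. Small p-values with almost no spread also belonged to Slc38a10, an amino acid transporter, which fell by 1.12 (SE 0.07). Among the higher genes, Cntfr, a receptor subunit for ciliary neurotrophic factor, was at 16.4, 12.8, 7.44 and 8.19 CPM in WT and at 40.3, 63.6, 64.7 and 60.9 CPM in KO (a log2 fold change of 2.35, SE 0.25, adjusted p = 2.27e-05), close to its 56.6 ± 10.2 CPM in WT at 30 °C. Peg3, a zinc finger gene of the imprinted list, rose by 1.67 (SE 0.21) from 51.7 ± 11.8 to 165 ± 42.3 CPM. Cldn1, a tight junction protein, rose by 2.32 (SE 0.30), and Fndc5, the irisin precursor in the secreted factor list, by 1.90 (SE 0.51) from 4.06 ± 2.00 CPM.

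Both direct neighbours of Ucp1 among the tested genes were higher in KO. Elmod2 (chromosome 8, 83312632 to 83332486, minus strand, GRCm38) was at 39.2, 25.9, 37.1 and 48.5 CPM in WT and at 286, 469, 470 and 509 CPM in KO (a log2 fold change of 3.52, SE 0.30, adjusted p = 3.14e-06). It lies 14.2 kb beyond the end of Ucp1 (83290352 to 83298452, plus strand). Tbc1d9, a Rab GTPase-activating protein gene that ends 17.4 kb before Ucp1, was higher too, at 9.10 ± 2.70 CPM in WT and 26.8 ± 2.70 CPM in KO (a log2 fold change of 1.55, SE 0.19, adjusted p = 8.54e-05). Between these neighbours Ucp1 did not pass the test. The next tested genes outward, Rnf150 and Scoc, named here after their values were seen, were slightly lower, at -0.53 and -0.32 (adjusted p = 0.00754 and 0.0276). At 30 °C Elmod2 was at 32.7 ± 3.03 CPM in WT and 141 ± 54.8 CPM in KO (a log2 fold change of 2.10, adjusted p = 0.00785), and Tbc1d9 had 0.90 (adjusted p = 0.271). The KO mice carry a transgene under the Ucp1 promoter whose content is not given in the sources used here, and its part in these counts was not tested. Within 250 kb, 4 of 4 tested neighbours of Ucp1 and 0 of 14 of Akt2 were called at 22 °C in edgeR, with 1 of the 14 at an unadjusted p under 0.05. Within 500 kb of Akt2 the count was 1 of 27. Of all genes tested 17.6% were called, and the 4 calls near Ucp1 did not share a direction. Counts of so few neighbours cannot be set firmly against that share.

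At 30 °C the 6 called genes were Akt2, Akt2-ps, Elmod2, Mreg, Ucp2 and Kcnk2, and all 6 were also called at 22 °C. Akt2-ps is a processed copy of Akt2 and may share its reads, and it and Kcnk2, a potassium channel gene, were named after their values were seen. Ucp2, a mitochondrial carrier related to Ucp1, was at 48.4, 46.4, 53.2 and 49.9 CPM in WT and at 72.5, 76.3, 88.2 and 90.0 CPM in KO at 22 °C (a log2 fold change of 0.72, SE 0.09), and its fold change at 30 °C was 0.62 (adjusted p = 0.00785). Mreg, which takes part in organelle transport, rose by 1.71 (SE 0.14) at 22 °C and by 1.08 at 30 °C (adjusted p = 0.00359).

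The difference between the knockout effects at the 2 temperatures was tested directly and passed in 443 genes (3.14%), 337 more negative at 22 °C (2.39%) and 106 more positive (0.752%). Members more negative at 22 °C numbered 11 of 20 in fatty acid synthesis, 9 of 26 in cholesterol synthesis, 4 of 8 in the pentose phosphate pathway, 9 of 28 in glycolysis, 6 of 22 in glycogen metabolism and 14 of 33 in pyruvate dehydrogenase and the TCA cycle. None of these lists had a member more positive at 22 °C. For Slc25a1 the log2 fold change was -1.94 at 22 °C and -0.11 at 30 °C, a difference of -1.83 (adjusted p = 8.27e-05), and for Pygl it was -1.85 and 0.12, a difference of -1.96 (adjusted p = 3.45e-05). At 30 °C the medians of these 6 lists lay between -0.14 and 0.08. The summed level of the fatty acid synthesis list was nevertheless lower in KO there, at 5506 to 10060 CPM against 10250 to 23240 CPM in WT, without overlap. The number of genes passing depended on single libraries. It was 1085 without WT library 4 at 22 °C. It was between 147 and 245 without any 1 WT library at 30 °C, KO library 1, 3 or 4 at 30 °C, or KO library 2, 3 or 4 at 22 °C, and 15 without the libraries above 0.1% muscle counts.

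**Figure D5:**
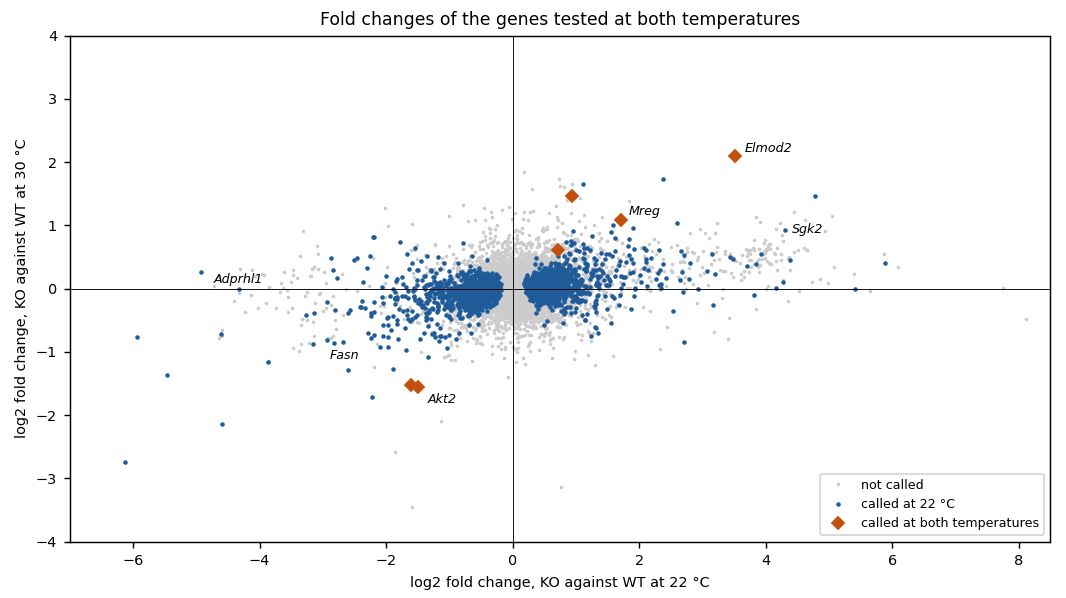
Each point is 1 of the 14103 genes tested, placed by its log2 fold change of KO against WT at 22 °C (horizontal) and at 30 °C (vertical), in grey where not called at 22 °C, in blue where called at 22 °C and in orange where called at both. The blue points stretch along the horizontal axis with small values at 30 °C, and the 6 orange points, with Akt2 at -1.5 and -1.55 and Elmod2 at 3.52 and 2.10, lie away from it.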

How the data were processed

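The authors deposited 1 table of raw gene counts from bulk RNA-seq of mouse interscapular brown fat, with 16 libraries in 4 groups of 4. The submitters' processing notes list STAR 2.4.2a, FastQC 0.10.1 and edgeR 3.14.0, and name GRCm38 and mm10, with no role for either. How reads were counted, with which annotation and whether by strand, is not given in the sources used here, so reads of overlapping and antisense genes cannot be told apart. Of 38924 gene IDs 1317 had no symbol and held at most 0.131% of a library's counts.

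All 16 libraries were fitted together with edgeR 4.0.16 in R 4.3.3 (trimmed-mean factors, filterByExpr with a minimum count of 10, quasi-likelihood test, Benjamini-Hochberg adjustment over 14103 genes), with 1 mean per group. Alternatives used limma 3.58.1, DESeq2 1.42.0, other scalings and filters, fewer libraries, a replicate block, and muscle and clock covariates.

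Genes that could be named were Akt1, Akt2, Mlxipl, Srebf1, Srebf2, Foxo1 and Ucp1; of each list, up to 6 called members with the smallest p and up to 3 called against its larger direction, or, where none was called, up to 2 with the highest mean count; the 15 largest changes each way without overlap and with a mean logCPM of at least 2; and the 10 smallest p each way. Predicted, RIKEN and pseudogene names were left out of the last 2 groups. Members and lists were chosen with earlier results of these data known. In simulated counts for 14103 genes, only 100 were given a 1.5-fold change and 100 a 2-fold change. Of these, 19 and 54 were found, and 5 calls were wrong. In the data 2482 genes were called, and recovery with so many changes was not tested. Some results are not reported here.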

Additional observations from a re-analysis of the deposited data

Results flagged for a closer look

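Within a group of 4 libraries at 22 °C, a library was taken as far from the others when its gap to the nearest one divided by the group's range in CPM was above Dixon's critical value. Among 232 gene-group pairs (116 named genes in 2 groups) 25 met this. The critical value is set for about 1 in 20 among independent, normally spread values. These genes were named from the same libraries and can move together, so the count cannot be set against that rate. KO library 1 accounted for 17 of them, at 288 CPM for Aacs, 63.8 CPM for Srebf2, 471 CPM for Taldo1, 420 CPM for Pdhb, 19.2 CPM for Pdp1, 5162 CPM for Lpl, 79.7 CPM for Slc25a44, 71.9 CPM for Mrpl50, 111 CPM for Fosb, 34.5 CPM for Fos, 34 CPM for Fosl1, 156 CPM for Egr1, 63.5 CPM for Socs3, 40.2 CPM for Sphk1, 21.8 CPM for Psph, 40.3 CPM for Cntfr and 599 CPM for Akap12. KO library 2 stood apart at 212 CPM for Srebf1. KO library 4 stood apart at 599 CPM for Idh2 and 282 CPM for Ppargc1a. WT library 2 stood apart at 2760 CPM for Cox6a1, 98.4 CPM for Psmd14, 402 CPM for Gpx4 and 76.3 CPM for Gstp1. WT library 4 stood apart at 999 CPM for Scd2. KO library 1 was also the library with skeletal muscle counts and WT library 2 the one with the lowest mitochondrially encoded level, and their part in these values was not tested.

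For 57 named genes the knockout effect at 22 °C differed from that at 30 °C in edgeR's test of the difference itself, given here as the log2 fold change at 22 °C minus that at 30 °C. Most named genes were picked for their size or p-value in the same 22 °C libraries, which enter this difference. Their number and signs therefore cannot be set against the 3.14% of all genes tested that passed. The difference was negative for 48 of the 57. These began with signalling, lipid and sterol genes, namely Deptor (-1.09), Grb14 (-0.92), Mtor (-0.71), Fasn (-2.13), Acly (-2.47), Acaca (-2.03), Acss2 (-2.18), Slc25a1 (-1.83), Thrsp (-1.94), Aacs (-1.36), Scd2 (-2.11), Nsdhl (-1.63), Pmvk (-1.72), Lss (-1.23), Dhcr7 (-0.89), Sc5d (-0.98) and Fdps (-1.54). Carbohydrate, acyl-CoA and related genes gave Gpi1 (-1.30), Gapdh (-1.25), Pkm (-1.15), Aldoa (-1.26), Slc2a4 (-0.82), Tkt (-1.71), Pgd (-1.80), Taldo1 (-1.18), Pygl (-1.96), Gbe1 (-1.14), Pnpla3 (-1.98), Pdk1 (-1.15), Pdhb (-1.26), Pdha1 (-0.81), Dlat (-0.83) and Acsl5 (-1.99). The rest were Lipe (-0.53), Acot11 (-2.09), Hadha (-0.65), Pex11a (-0.55), Ndufs1 (-0.45), Sdha (-0.44), Cox6a1 (-0.75), Mrpl50 (-0.92), Psmd14 (-0.62), Psmb7 (-0.58), Gstp1 (-0.71), Dbp (-2.22), Adprhl1 (-4.31), Sorcs2 (-2.75) and Slc38a10 (-1.02). Positive differences belonged to 9 genes, Sgk2 (3.37), Lpl (0.78), Nnmt (2.19), Dcn (0.69), Lum (0.71), Igha (3.55), Cntfr (2.28), Cldn1 (1.71) and Peg3 (1.30).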

How the results depend on the processing

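Of 1061 genes higher and 1421 lower in KO at 22 °C, 193 and 441 were called from the 8 libraries at 22 °C alone, 391 and 705 without the libraries above 0.1% muscle counts, and 22 and 87 with the clock covariate. Leaving out 1 library gave 753 to 1318 higher and 1084 to 1762 lower genes, and an Akt2 log2 fold change of -1.54 to -1.44. The 6 calls at 30 °C became 22 with DESeq2, 44 with limma-voom and 1 without the muscle-bearing libraries, and 2 to 7 with 1 library left out. The 443 differences between temperatures became 236 without a filter, 1076 with DESeq2, 1050 with limma-voom, 15 without the muscle-bearing libraries, 29 with the clock covariate and 147 to 1085 with 1 library left out. The cause of these changes was not tested, and settings that leave out libraries also have fewer samples.

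With the clock covariate 8 named genes changed sign, Fosb to -0.85, Fos to -0.26, Fosl1 to -0.89, Egr1 to -0.15, Sphk1 to -0.85, Akap12 to -0.51, Psph to 0.09 and Arntl to -0.07. Arntl is part of that covariate, so its value there is set by the fit and tests nothing. Of the 111 single-gene results compared, 73 more no longer passed under it, 26 with only the 8 libraries and 15 without WT library 2.

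Same-numbered libraries deviated with correlations of -0.11, -0.04, 0.20 and 0.19. So few values cannot show whether equal numbers pair the samples. With a replicate block 913 genes were higher and 1179 lower at 22 °C, and 186 differed between temperatures.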
